A study of Saccharomyces cerevisiae with 18 samples.

Results

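The 8 genes described here make, use or recycle glutathione in Saccharomyces cerevisiae. The choice, by name, was made with earlier results of these data known. The genes are the transferases GTO1, GTO3, ECM4, GTT1 and GTT2, the synthesis enzymes GSH1 and GSH2, and the reductase GLR1. Each was read by 1 probe set, so they account for 8 of the 5498 S. cerevisiae probe sets tested, which stand for 5449 genes. None of the 8 probe sets is of the types that the array maker marks as shared between transcripts.

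Glutathione is a tripeptide of glutamate, cysteine and glycine and the most abundant low-molecular-weight thiol of the yeast cell. It is made by a pair of ATP-dependent ligases, is oxidised when it reduces peroxides and disulfides, and is returned to its reduced form by an NADPH-dependent reductase. Glutathione transferases couple it to electrophilic compounds or, in the omega class, catalyse thiol transfer through an active-site cysteine, and the conjugates are moved into the vacuole by ABC transporters.

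The arrays came from BY4742, a haploid laboratory strain of mating type alpha, grown in YPD, a rich medium, at 30 °C. In mid-exponential phase the cultures received nonylphenol, an alkylphenol left by the breakdown of some detergents, at 5 mg/L or 1 mg/L, or as control an equal volume of the solvent, ethanol, which all groups therefore carry. RNA was taken after 180 or 120 min, giving 6 groups with 3 arrays each, which the labels call biological replicates, and the series asked for the transcriptional profile of the yeast under each of these concentrations. The values are log2 RMA signals, so that a difference of 1 is a doubling of the signal, and the level of one probe set says nothing of abundance relative to another.

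Between 98.2 and 99.3% of the probe sets tested exceeded, on each array, a background level of 1.86 set from probe sets of another yeast species, and replicate arrays correlated at r = 0.994 to 0.999. The alpha-specific genes SAG1 and STE3 had group means of 11.42 to 11.68 and 9.48 to 10.14. URA3 and LYS2, which this strain lacks, stood at 0.95 to 1.24 and 1.38 to 1.57, under the background level, while LEU2 stood at 2.89 to 3.24 and HIS3 at 8.84 to 9.48, above it, although the strain carries deletions in both. Of the a-specific genes, MFA2 averaged 5.18 and 2.52 in the 5 mg/L and control groups at 180 min, and 5.37 and 2.88 in those groups at 120 min, and MFA1 averaged 5.08 and 3.83 at 180 min and 5.21 and 4.01 at 120 min. STE2 lay between 4.32 and 4.60 in all groups, and the part of these signals in the results below was not tested. Scaled to 36 poly-A control probe sets instead of the deposited scale, every gene's change at 5 mg/L against control shifted by -0.24 at 180 min and by -0.78 at 120 min. Each shift had an SE of 0.25. The scaling adds that spread to every gene, so a call lost on the poly-A scale does not show a lack of change. Whether poly-A transcripts were added equally to each sample is not given in the sources used here. Per the labels' protocols 100 ng of total RNA was labelled, so the shift says nothing of cell number, and its cause was not tested. In bulk RNA, fewer cells with a transcript and less of it per cell cannot be told apart.

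At 5 mg/L, 4 of the 5 transferases rose against control and both synthesis enzymes and the reductase fell, at both times. GTO3 rose most, by 7.34-fold at 180 min and 5.51-fold at 120 min, and the falls were small, with GSH2 1.49-fold lower at 180 min and 1.38-fold lower at 120 min. A call is an adjusted p under 0.05 in limma (Benjamini-Hochberg over all 5498 probe sets), and 7 of the 8 genes were called at each time. The share over all probe sets was 61.4% at 180 min (27.1% higher and 34.3% lower) and 58.1% at 120 min (25.4% higher and 32.7% lower). Over all probe sets the 3 arrays at 5 mg/L lay entirely above the control arrays for 30.4% and entirely below for 39.6% at 180 min, and for 28.7% and 37.2% at 120 min. All 6 arrays at 5 mg/L lay above the other 12 for 15.8% of probe sets and below them for 18.6%. The 3 of 8 genes that fell are thus close to the share of all probe sets that fell, the 4 of 8 that rose are a larger share than over all probe sets, and the count itself was not tested. Since the genes were chosen with earlier results of these data known, the larger share cannot be read as an enrichment. The median log2 change of the 8 genes was 0.09 at 180 min and 0.34 at 120 min, beside -0.04 over all probe sets at both times. On the poly-A scale the split of 4 higher and 3 lower became 1 and 1 at 180 min, and 1 and 4 at 120 min, where over all probe sets 95 were higher and 4278 lower instead of 1398 and 1796.

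**Figure D1:**
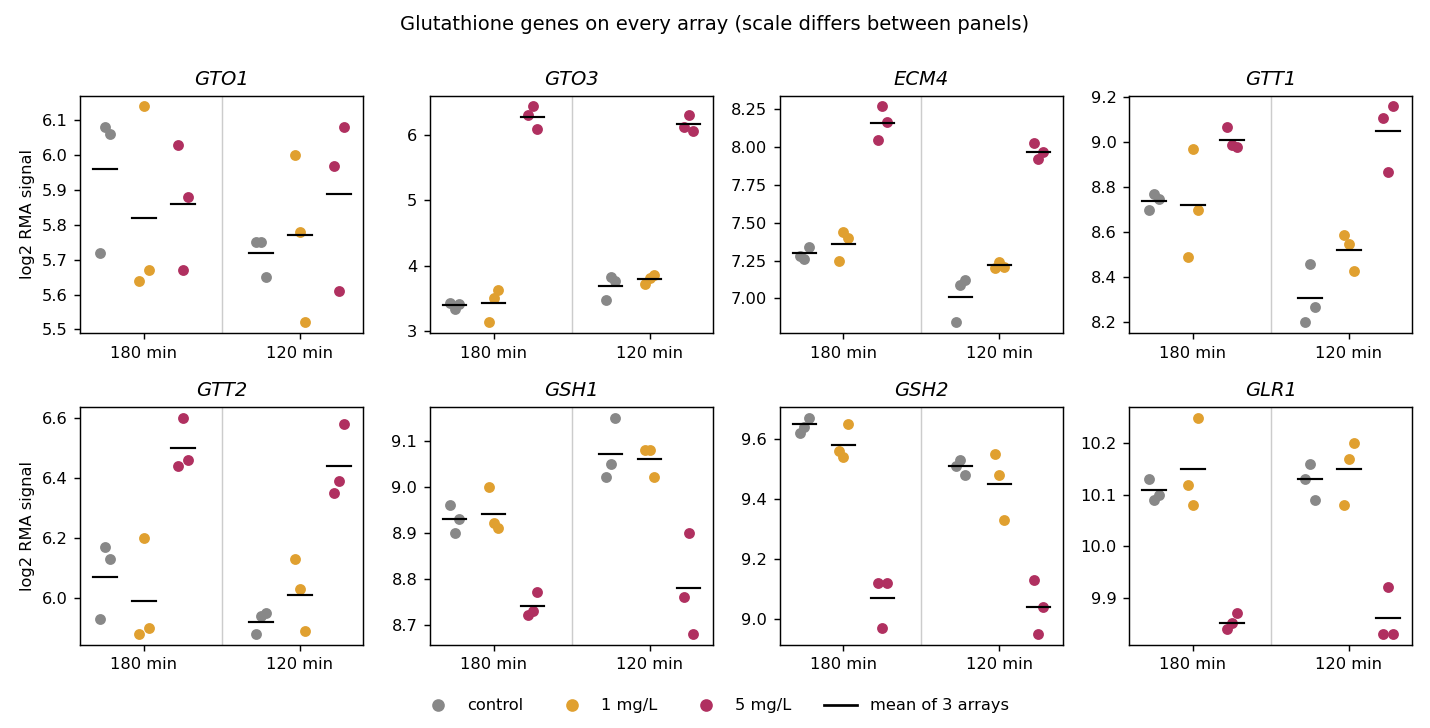
The log2 RMA signal of each gene (vertical axes, which differ between panels) is plotted for every array at 180 and 120 min, with points for the 3 arrays of control, 1 mg/L and 5 mg/L groups and a bar for their mean, on the deposited scale. GTO3 sits between 6.06 and 6.43 on the 5 mg/L arrays and between 3.13 and 3.86 on all others, GSH2 and GLR1 sit lower on the 5 mg/L arrays, and the GTO1 arrays overlap.

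GTO3 encodes an omega-class glutathione transferase of the cytosol. Its log2 signal was 6.30, 6.43 and 6.08 on the 5 mg/L arrays at 180 min, against 3.43, 3.34 and 3.41 on the control arrays. At 120 min it was 6.11, 6.30 and 6.06 on the 5 mg/L arrays, against 3.48, 3.83 and 3.77 on the control arrays. The groups were far apart at both times, and the 6 arrays at 5 mg/L all lay above the other 12. The log2 change was 2.88 at 180 min (SE 0.12, limma adjusted p = 1.13e-11) and 2.46 at 120 min (SE 0.12, adjusted p = 4.88e-11). Its place among all probe sets was high, with 3 changing more in the upward direction at 180 min and 15 at 120 min. GTO3 was dim in controls, and dim probe sets as a class moved upward: the 206 with a control level of 2 to 4 at 180 min had a median log2 change of 0.31 with 48.1% called higher, and the 213 such probe sets at 120 min had 0.45 with 58.7% called higher. Of these, 2 at 180 min and 8 at 120 min changed more than GTO3. The direction and the calls of GTO3 held at both times on the poly-A scale.

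The order of the group means for GTO3 was 6.27 ± 0.18 at 5 mg/L and 180 min, 6.16 ± 0.12 at 5 mg/L and 120 min, 3.80 ± 0.07 at 1 mg/L and 120 min, 3.69 ± 0.19 in control at 120 min, 3.42 ± 0.26 at 1 mg/L and 180 min, and 3.39 ± 0.04 in control at 180 min (SD, n = 3 arrays each). Neighbours in this order overlapped on single arrays except at the step between the 5 mg/L groups and the rest.

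ECM4, also named GTO2, encodes another cytosolic omega-class transferase and owes its name to a screen for cell wall mutants. It read 8.05, 8.27 and 8.17 at 5 mg/L and 180 min, against 7.28, 7.26 and 7.34 in control. At the earlier time it read 8.03, 7.92 and 7.97 at 5 mg/L, against 6.84, 7.09 and 7.12 in control. The groups did not overlap, and all 6 arrays at 5 mg/L were above the other 12. ECM4 rose by a log2 change of 0.87 at 180 min (1.82-fold, SE 0.07, limma adjusted p = 5.28e-08) and of 0.96 at 120 min (1.94-fold, SE 0.07, adjusted p = 1.62e-08). The poly-A scale gave a change of 0.63 at 180 min and 0.18 at 120 min, with the same direction and no call (adjusted p = 0.102 and 0.533).

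The group means of ECM4 were ordered from 8.16 ± 0.11 at 5 mg/L and 180 min and 7.97 ± 0.05 at 5 mg/L and 120 min to 7.36 ± 0.10 at 1 mg/L and 7.30 ± 0.04 in control at 180 min, then 7.22 ± 0.02 at 1 mg/L and 7.01 ± 0.16 in control at 120 min (SD, n = 3). Of these neighbours, the arrays of 1 mg/L and control at 180 min overlapped and the others did not.

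GTT1 encodes a transferase associated with the endoplasmic reticulum. Its arrays gave 9.07, 8.99 and 8.98 at 5 mg/L and 180 min, against 8.70, 8.77 and 8.75 in control. At 120 min they gave 9.11, 8.87 and 9.16 at 5 mg/L, against 8.20, 8.46 and 8.27 in control. Within each time the groups were apart, but the arrays at 5 mg/L, 8.87 to 9.16, overlapped with the other 12, 8.20 to 8.97, through 1 array at 1 mg/L and 180 min. GTT1 rose by a log2 change of 0.27 at 180 min (1.21-fold, SE 0.10, limma adjusted p = 0.0283) and of 0.74 at 120 min (1.67-fold, SE 0.10, adjusted p = 1.04e-05). The call at 180 min was lost without 5 mg/L replicate 1 (0.24, limma adjusted p = 0.0833) or 2 (0.28, adjusted p = 0.051) and without control replicate 1 (0.25, adjusted p = 0.0768) or 3 (0.28, adjusted p = 0.056). With poly-A scaling GTT1 stood at 0.03 at 180 min and turned to -0.04 at 120 min, with neither called.

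The means of GTT1, from the highest to the lowest, were 9.05 ± 0.16 at 5 mg/L and 120 min, 9.01 ± 0.05 at 5 mg/L and 180 min, 8.74 ± 0.04 in control at 180 min, 8.72 ± 0.24 at 1 mg/L and 180 min, 8.52 ± 0.08 at 1 mg/L and 120 min, and 8.31 ± 0.13 in control at 120 min (SD, n = 3). In this order the arrays of neighbouring groups overlapped except at the step from the 5 mg/L group to the control group at 180 min.

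GTT2 encodes a second transferase of the GTT pair, which has been placed in mitochondria. The 5 mg/L arrays at 180 min held 6.44, 6.60 and 6.46, against 5.93, 6.17 and 6.13 on the control arrays. The 5 mg/L arrays at 120 min held 6.35, 6.39 and 6.58, against 5.88, 5.94 and 5.95 on the control arrays. No array overlapped, and the 6 values at 5 mg/L all exceeded the other 12, which reached 6.20. GTT2 rose by a log2 change of 0.43 at 180 min (1.34-fold, SE 0.09, limma adjusted p = 0.000698) and of 0.52 at 120 min (1.43-fold, SE 0.09, adjusted p = 0.000126), and on the poly-A scale it stood at 0.19 at 180 min and turned to -0.26 at 120 min, neither called. Its means were 6.50 ± 0.09 and 6.44 ± 0.12 at 5 mg/L (180 and 120 min) and between 5.92 and 6.07 in the other 4 groups, whose neighbours overlapped.

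GTO1, the omega-class transferase of peroxisomes, was the gene that was not called. It read 6.03, 5.67 and 5.88 at 5 mg/L and 180 min, against 5.72, 6.08 and 6.06 in control. Values at 120 min were 5.97, 5.61 and 6.08 at 5 mg/L, against 5.75, 5.75 and 5.65 in control. The groups overlapped at both times. The log2 change was -0.10 at 180 min (95% interval -0.42 to 0.23, limma adjusted p = 0.608) and 0.17 at 120 min (-0.15 to 0.50, adjusted p = 0.353). With array quality weights GTO1 was called higher at 120 min (0.32, adjusted p = 0.00579), and on the poly-A scale it was called lower there (-0.61, adjusted p = 0.0283). All 6 group means lay between 5.72 and 5.96 with overlapping neighbours, and the SD within a group reached 0.28, the widest of the 8 genes.

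GSH1 encodes gamma-glutamylcysteine synthetase, the first and rate-limiting step of glutathione synthesis. It read 8.72, 8.73 and 8.77 at 5 mg/L and 180 min, against 8.96, 8.90 and 8.93 in control. At 120 min it read 8.76, 8.90 and 8.68 at 5 mg/L, against 9.02, 9.05 and 9.15 in control. The groups were apart at each time. All 6 arrays at 5 mg/L lay below the other 12, though narrowly, since the nearest values both round to 8.90. The log2 change was -0.19 at 180 min (1.14-fold lower, SE 0.06, limma adjusted p = 0.00683) and -0.29 at 120 min (1.23-fold lower, SE 0.06, adjusted p = 0.000231).

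GSH2, glutathione synthetase, adds glycine in the last step of synthesis. Arrays at 5 mg/L and 180 min gave 9.12, 8.97 and 9.12, against 9.62, 9.64 and 9.67 in control. Arrays at 5 mg/L and 120 min gave 9.13, 8.95 and 9.04, against 9.51, 9.53 and 9.48 in control. All 6 arrays at 5 mg/L were below the other 12. GSH2 fell by 0.58 on the log2 scale at 180 min (SE 0.06, limma adjusted p = 8.47e-07) and by 0.47 at 120 min (SE 0.06, adjusted p = 8.45e-06).

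GLR1 encodes the glutathione reductase, which returns the oxidised disulfide to its reduced form. It read 9.84, 9.85 and 9.87 at 5 mg/L and 180 min, against 10.13, 10.09 and 10.10 in control. At 120 min it read 9.83, 9.92 and 9.83 at 5 mg/L, against 10.13, 10.16 and 10.09 in control. The 5 mg/L arrays were again all below the other 12, and the 5 mg/L groups were close to each other, with means of 9.85 ± 0.01 at 180 min and 9.86 ± 0.05 at 120 min. GLR1 fell by 0.26 on the log2 scale at 180 min (1.19-fold lower, SE 0.05, limma adjusted p = 0.000438) and by 0.27 at 120 min (1.2-fold lower, SE 0.05, adjusted p = 0.000309).

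For GSH1, GSH2 and GLR1 the poly-A scale kept the direction at both times, and at 180 min GSH1 (-0.43, limma adjusted p = 0.271) and GLR1 (-0.49, adjusted p = 0.206) were then not called. Both falls were larger there than on the deposited scale (-0.19 and -0.26), while the shift itself had an SE of 0.25. In the order of their 6 group means, the 5 mg/L groups were the lowest for all 3 genes. For GSH1 the means ran upward in pairs, from 8.74 ± 0.03 (180 min) and 8.78 ± 0.11 (120 min) at 5 mg/L through 8.94 ± 0.05 at 1 mg/L and 8.93 ± 0.03 in control at 180 min to 9.06 ± 0.03 at 1 mg/L and 9.07 ± 0.07 in control at 120 min (SD, n = 3), and arrays overlapped within each pair but not between them. For GSH2 they ran from 9.07 ± 0.08 (180 min) and 9.04 ± 0.09 (120 min) at 5 mg/L through 9.45 ± 0.11 at 1 mg/L and 9.51 ± 0.03 in control at 120 min to 9.58 ± 0.06 at 1 mg/L and 9.65 ± 0.02 in control at 180 min (SD, n = 3), where arrays overlapped within each pair and neighbours from different pairs did not. For GLR1 the 4 groups without 5 mg/L lay between 10.11 and 10.15 and overlapped.

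**Figure D2:**
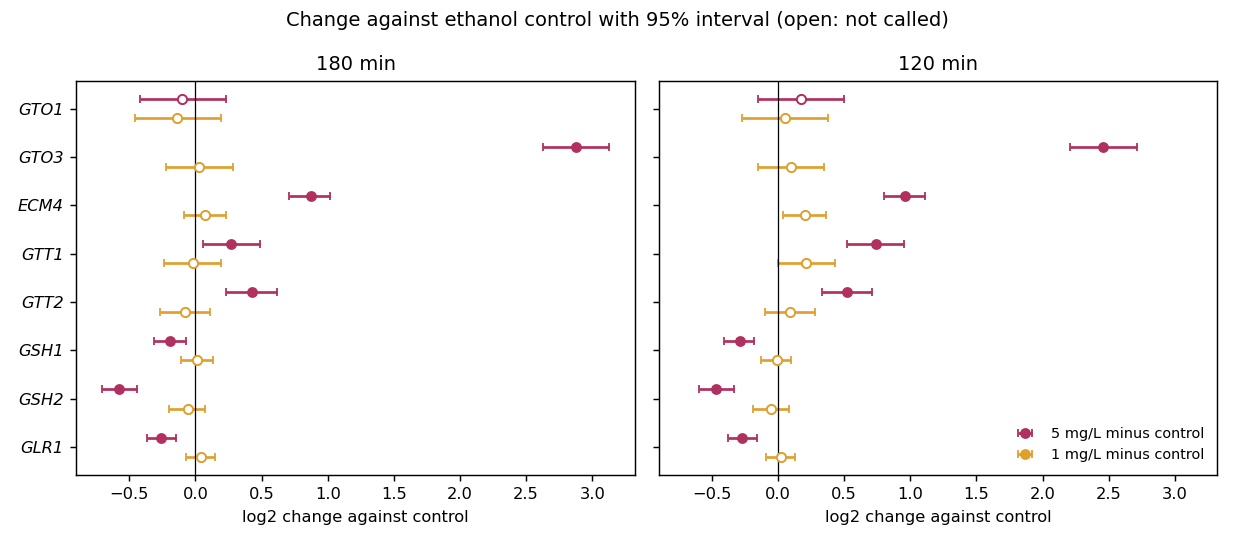
Points give the log2 change of each gene against control (horizontal axis) at 180 min (left) and 120 min (right) for 5 mg/L and 1 mg/L, with 95% intervals from limma on the deposited scale, and open points are not called. At 5 mg/L the changes span -0.58 to 2.88 at 180 min and -0.47 to 2.46 at 120 min; on the poly-A scale each 5 mg/L point moves by -0.24 at 180 min and -0.78 at 120 min, which turns GTT1, GTT2 and GTO1 below 0 at 120 min, with GTO1 (-0.61) called lower.

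At 1 mg/L against control, 0 of the 8 genes were called by limma at either time, where 0.109% of all probe sets were called at 180 min and 0.455% at 120 min. The 3 arrays lay all above control for 0 of the 8 genes at 180 min, beside 3.22% of all probe sets, and for 1 at 120 min, beside 5.20%. At an unadjusted p under 0.05 the count was 0 of the 8 at 180 min and 1 at 120 min, beside 198 and 238 of all probe sets. The log2 changes lay between -0.14 and 0.07 at 180 min, with 95% bounds from -0.46 to 0.28, and between -0.05 and 0.21 at 120 min, with bounds from -0.27 to 0.43. For each of the 7 genes called at 5 mg/L, the gene's own interval at 1 mg/L did not reach its change at 5 mg/L at either time, whereas for GTO1 it did.

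ECM4 came nearest to a call at 1 mg/L. At 120 min its arrays gave 7.20, 7.24 and 7.21 at 1 mg/L, against 6.84, 7.09 and 7.12 in control, all above (log2 change 0.20, SE 0.07, limma adjusted p = 0.683). GTT1 gave 8.59, 8.55 and 8.43 at 1 mg/L, against 8.20, 8.46 and 8.27 in control at 120 min, which overlapped (0.21, SE 0.10, adjusted p = 1). With array quality weights both were called higher at that time (ECM4 0.22, adjusted p = 0.0416, and GTT1 0.24, adjusted p = 0.0311). GTO3 read 3.13, 3.51 and 3.63 at 1 mg/L and 180 min, against 3.43, 3.34 and 3.41 in control, and 3.72, 3.81 and 3.86 at 1 mg/L and 120 min, against 3.48, 3.83 and 3.77 in control, with overlap at both times. At 180 min the second 1 mg/L array was the highest of its 3 for 4 genes, GTO1, ECM4, GTT1 and GTT2.

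Set against 1 mg/L in place of control, 5 mg/L gave 7 called genes of 8 at each time, 4 higher and 3 lower, where 59.4% of all probe sets were called at 180 min (26.7% higher and 32.7% lower) and 57.4% at 120 min (24.3% higher and 33.1% lower). GTO3 was higher at 5 mg/L by 2.85 at 180 min and 2.36 at 120 min on the log2 scale, and ECM4 by 0.80 and 0.76 at those times. GTT1 was higher by 0.30 at 180 min and 0.53 at 120 min, and GTT2 by 0.51 and 0.43. GSH2 fell by 0.51 at 180 min and by 0.41 at 120 min, GLR1 fell by 0.30 and by 0.29, and GSH1 fell by 0.20 and by 0.28. GTO1 was not called (0.04 and 0.12), except at 120 min, where array quality weights called it higher (0.25, limma adjusted p = 0.0209) and poly-A scaling called it lower (-0.72, adjusted p = 0.00953). The GTT1 call at 180 min was lost without 5 mg/L replicate 1 (0.27, limma adjusted p = 0.0618), without 1 mg/L replicate 1 (0.18, adjusted p = 0.123) or 3 (0.28, adjusted p = 0.0504), and with only the compared arrays in the fit (adjusted p = 0.0525). Poly-A scaling turned ECM4, GTT1 and GTT2 to -0.08, -0.31 and -0.41 at 120 min with none called, and at 180 min GTO3 was the 1 gene still called. These comparisons share the 5 mg/L arrays with those against control.

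Between the times, the effect of 5 mg/L differed for 1 of the 8 genes, GTT1, where 15.0% of all probe sets differed (8.53% higher and 6.46% lower). The 5 mg/L effect on GTT1 was smaller at 180 than at 120 min by 0.47 on the log2 scale (180 minus 120 min -0.47, SE 0.14, limma adjusted p = 0.039). The level at 5 mg/L was 9.01 ± 0.05 at 180 min and 9.05 ± 0.16 at 120 min (log2 difference -0.04, adjusted p = 0.9), while the control level was 8.74 ± 0.04 at 180 min and 8.31 ± 0.13 at 120 min (0.43, adjusted p = 0.00656). The call was lost in 9 of the 18 fits that left out 1 array, with differences of -0.41 to -0.49 and adjusted p of 0.0502 to 0.102: without 5 mg/L replicate 2 or 3 or any control replicate at 180 min, or 5 mg/L replicate 1 or 3 or control replicate 1 or 3 at 120 min. Under poly-A scaling the difference turned to 0.08 and was not called.

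GTO3 had the opposite sign, a 5 mg/L effect larger by 0.41 at 180 than at 120 min (SE 0.17, 95% interval 0.06 to 0.77), which was not called (limma adjusted p = 0.102) except with array quality weights (0.51, adjusted p = 0.00995) or without 1 mg/L replicate 1 at 180 min (0.41, adjusted p = 0.0494). Its level at 5 mg/L was 6.27 at 180 min and 6.16 at 120 min (0.11, adjusted p = 0.692), and in control 3.39 at 180 min and 3.69 at 120 min (-0.30, adjusted p = 0.0734). The other 6 genes differed between the times by -0.27 to 0.10 and were not called. For the effect of 1 mg/L, 0 of 8 genes differed between the times, 0 of 8 at an unadjusted p under 0.05, where 0% of all probe sets were called by limma and 139 had an unadjusted p under 0.05.

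Within single treatments, 180 was also set against 120 min. In control, 2 of the 8 genes were called, beside 23.2% of all probe sets (11.1% higher and 12.1% lower). ECM4 read 7.28, 7.26 and 7.34 in control at 180 min, against 6.84, 7.09 and 7.12 at 120 min, and rose by 0.28 (limma adjusted p = 0.0129). That call was lost without control replicate 1 at 120 min (0.19, adjusted p = 0.08) or control replicate 3 at 180 min (0.26, adjusted p = 0.0502). GTT1 rose by 0.43, as given above, and on the poly-A scale neither gene was called (0.15 and 0.30). GTO3 in control was called lower without control replicate 1 at 120 min (-0.41, adjusted p = 0.0381) or 1 mg/L replicate 1 at 180 min (-0.30, adjusted p = 0.0324).

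At 5 mg/L, 0 of the 8 genes were called between the times by limma, beside 0.891% of all probe sets, with log2 differences of -0.04 to 0.19. At an unadjusted p under 0.05 the count was 1 of the 8, beside 932 of all probe sets. At 1 mg/L, 0 of the 8 were called, beside 10.2% of all probe sets, and 2 had an unadjusted p under 0.05, beside 1477 of all probe sets. The lowest adjusted p there belonged to GTO3, 3.13, 3.51 and 3.63 at 180 min against 3.72, 3.81 and 3.86 at 120 min (-0.37, SE 0.12, adjusted p = 0.0541). It was called without 1 mg/L replicate 3 at 180 min (-0.48, adjusted p = 0.0389) and without 1 of 3 arrays outside the comparison (adjusted p = 0.0453 to 0.0499), and GTT1 was called without 1 mg/L replicate 1 at 180 min (0.31, adjusted p = 0.0428).

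**Figure D3:**
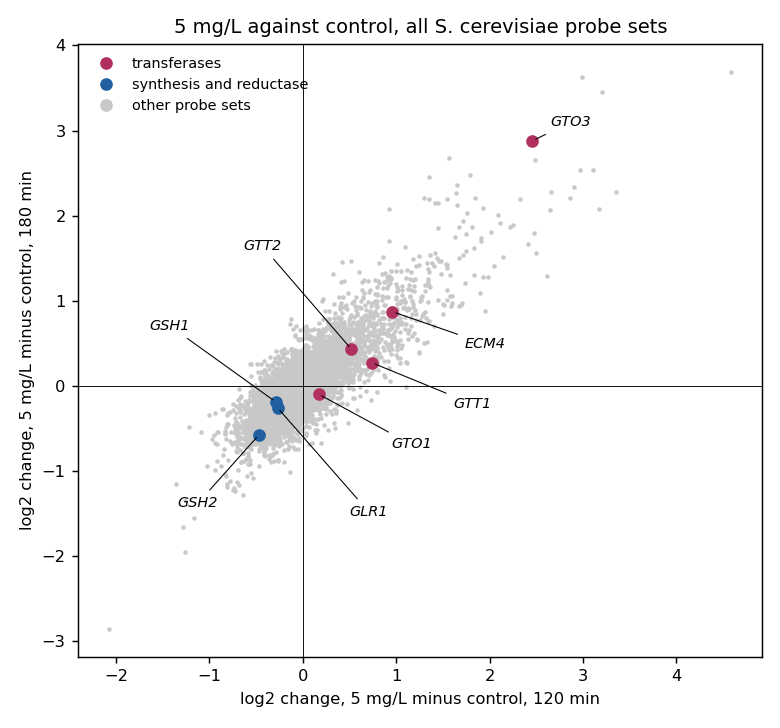
Each point is a S. cerevisiae probe set, placed by its log2 change at 5 mg/L minus control at 120 min (horizontal) and 180 min (vertical) on the deposited scale, with transferases in red and the synthesis enzymes and reductase in blue. GTO3 lies near the upper end with 2.88 at 180 min and 2.46 at 120 min, ECM4 at the edge of the main cloud, and GSH1, GSH2, GLR1 and GTO1 inside it; poly-A scaling moves all points by -0.78 along the horizontal and -0.24 along the vertical axis, which puts GTT1, GTT2 and GTO1 left of 0.

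How the 5 transferases moved relative to the 3 other genes was read within each array, where a shift of a whole array by 1 value cancels. A shift that varies with signal level does not cancel, and dim probe sets moved upward as a class. Control means ran from 3.39 to 8.74 for the transferases and from 8.93 to 10.13 for the other genes, and the part of signal level was not tested. The mean log2 signal of the transferases minus that of GSH1, GSH2 and GLR1 was -2.05, -2.00 and -2.14 on the 5 mg/L arrays at 180 min, against -3.36, -3.22 and -3.23 on the control arrays. At 120 min it was -2.13, -2.24 and -2.01 at 5 mg/L, against -3.52, -3.37 and -3.42 in control. The groups were well apart, by 1.21 at 180 min and 1.31 at 120 min. The 1 mg/L groups differed from control by -0.02 at 180 min and 0.15 at 120 min. GTO3 carried part of the difference, and without it the 4 remaining transferases gave 0.71 at 180 min and 0.94 at 120 min. The sign of the value itself has no meaning, since levels of different probe sets cannot be compared. The value shows unequal change, and it is given as a description because it combines genes whose changes are reported above.

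**Figure D4:**
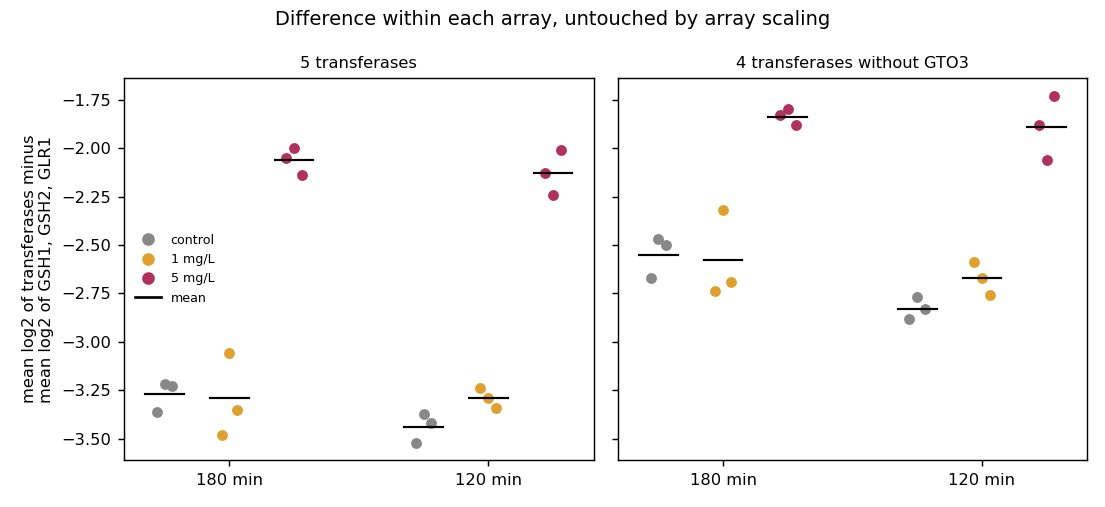
The mean log2 signal of the transferases minus the mean of GSH1, GSH2 and GLR1 on the same array (vertical axis, log2) is shown for each array at 180 and 120 min, with all 5 transferases (left) or without GTO3 (right), and bars for the mean of 3 arrays. In the left panel the 5 mg/L arrays lie between -2.24 and -2.00 and all others between -3.52 and -3.06.

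The genes whose signals over the 18 arrays were most like each member were listed by Pearson's r among S. cerevisiae probe sets above background, as a description. The 18 points share 6 groups and a step at 5 mg/L, and many genes carry that step. For GTO3 the closest were RTS3 (r = 0.995), ATG41 (0.994) and PDR15 (0.992), and 485 probe sets had r over 0.9. For ECM4 they were UGA1 (0.986), SPI1 (0.981) and DCS2 (0.978), with 296 over 0.9. GTT1 was closest to GSP2 and OPI3 (both 0.973) and YBR062C (0.961), and GTT2 to NDL1 (0.963), ASP3-1 (0.957) and YNL277W-A (0.954), with 75 and 128 over 0.9. GSH1 was closest to KAP104 (0.956), MTR10 (0.945) and BFR2 (0.944), GSH2 to RPB7 (0.984), VPS74 (0.983) and RPL12A (0.983), and GLR1 to VRG4 (0.970), LMO1 (0.967) and TED1 (0.965). GTO1, with no step at 5 mg/L, was closest to IGO1 (0.964), RPS27B (0.901) and RPP1B (0.897), and 2 probe sets had r over 0.9.

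The 8 genes lie on 8 different chromosomes in the RefSeq annotation of R64, so none neighbours another. The genes beside GTO3 are GAD1 and HOR7, which had log2 changes of -0.17 and -0.08 at 180 min and of 0.73 and 0.37 at 120 min at 5 mg/L against control. ECM4 lies between YKR075C (0.03 at 180 min and -0.11 at 120 min) and MSA2 (0.81 and 0.38). GTT1 lies beside HYR1, a thiol peroxidase (-0.04 and -0.01), and YPS6 (0.57 and 0.98). GSH2 lies between GAL11 (1.33 and 0.88) and RRT8 (-0.21 and 0.38), and GSH1 between MEF2 (-0.92 and -0.57) and LSB6 (-0.35 and -0.47). GTO1 lies between YGR153W (-0.61 and -0.13) and CYS4, which encodes cystathionine beta-synthase of cysteine supply (0.25 and 0.00). Beside GTT2 and GLR1, 1 neighbour each was measured, MMP1 (-0.57 and -0.62) and SSU1 (-0.39 and -0.46).

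The pathway around these 8 genes was read from 8 lists of 65 genes, 64 of them with a probe set. These lists too were chosen with earlier results of these data known. At 5 mg/L against control, 25 rose, 16 fell and 23 were not called at each time on the deposited scale, with a median log2 change of 0.08 at 180 min and 0.07 at 120 min, beside -0.04 over all probe sets at both times. Over all probe sets 27.1% rose and 34.3% fell at 180 min, and 25.4% rose and 32.7% fell at 120 min, and the count of each list below stands beside these shares and was not tested. On the poly-A scale, 3 were higher and 3 lower at 180 min, and 0 were higher and 45 lower at 120 min, where the shift of -0.78 turns every rise under that size below 0. At 1 mg/L, 0 of the 64 were called at either time.

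Of 5 other proteins listed as transferase-like, 2 rose and 2 fell at each time on the deposited scale, and on the poly-A scale 0 and 0 did at 180 min and 0 and 3 at 120 min. YGR201C rose by 0.77 at 180 min and 1.21 at 120 min, and CAM1, an elongation factor subunit, fell by 0.39 at 180 min and by 0.25 at 120 min. Of 11 glutaredoxins and glutathione peroxidases, 1 rose and 4 fell at 180 min, and 4 rose and 4 fell at 120 min, with 0 and 2, then 0 and 9, on the poly-A scale. GRX2, the main dithiol glutaredoxin, rose by 0.37 at 180 min and by 0.47 at 120 min, where the poly-A scale turned it to -0.31. GRX4, a monothiol glutaredoxin of iron regulation, fell by 0.56 at 180 min and by 0.47 at 120 min.

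Among 10 genes of glutathione transport and breakdown, 3 rose and 4 fell at 180 min, and 2 rose and 5 fell at 120 min, with 1 and 0, then 0 and 8, on the poly-A scale. VMR1, a vacuolar ABC transporter, rose by 1.35 at 180 min and by 1.05 at 120 min, and DUG2, part of the cytosolic peptidase complex that degrades glutathione, fell by 0.45 at 180 min and by 0.40 at 120 min. OPT1, the glutathione importer of the plasma membrane, fell by 0.32 at 180 min, a call lost without 5 mg/L replicate 1 (-0.25, limma adjusted p = 0.0852) or control replicate 1 (-0.29, adjusted p = 0.0547), and by 0.94 at 120 min. YBT1, another vacuolar ABC transporter, fell by 0.26 at 180 min and by 0.59 at 120 min. Of the 6 genes of cysteine supply, 3 rose and 0 fell at 180 min, and 3 rose and 1 fell at 120 min. These splits became 2 and 1, then 2 and 2, with quantile normalization applied again, and 1 and 0, then 0 and 3, on the poly-A scale. CYS3, cystathionine gamma-lyase, rose by 1.08 at 180 min and by 0.77 at 120 min, where the poly-A scale turned it to -0.01.

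NADPH supply, on which the reductase depends, had 7 of 12 genes higher and 3 lower at 180 min, and 5 higher and 2 lower at 120 min, with 1 and 1, then 0 and 7, on the poly-A scale. ALD6, the cytosolic acetaldehyde dehydrogenase, rose by 1.23 at 180 min and by 0.81 at 120 min, and GND2, the minor phosphogluconate dehydrogenase, by 0.84 and 1.02. On the poly-A scale ALD6 stood at 0.03 at 120 min, and GND2 at 0.60 at 180 min and 0.24 at 120 min, none of them called. IDP1, of the same list, fell by 0.62 at 180 min. Of 10 regulators, 7 rose and 0 fell at 180 min, and 5 rose and 1 fell at 120 min. These splits became 7 and 1, then 5 and 2, with quantile normalization applied again, and 0 and 0, then 0 and 6, on the poly-A scale. MET32, a zinc-finger regulator of sulfur genes, rose by 0.70 at 180 min and by 0.85 at 120 min (0.46 and 0.07 on the poly-A scale, neither called), and YAP1, the oxidative stress regulator known to drive GSH1, rose by 0.62 at 180 min (0.38 on the poly-A scale, not called). At 120 min YAP1 was called higher, but not without control replicate 1 (0.22, limma adjusted p = 0.0615) or 2 (0.17, adjusted p = 0.127). Nor was it called there without 5 mg/L replicate 2 (0.17, limma adjusted p = 0.115) or 3 (0.20, adjusted p = 0.0767). The poly-A scale turned YAP1 to -0.58 at 120 min, called lower (limma adjusted p = 0.038). The 5 genes of the thioredoxin system gave 1 rise and 1 fall at 180 min and 3 rises at 120 min, and the 5 of glyoxalase and formaldehyde detoxification gave 1 rise and 2 falls at 180 min and 1 of each at 120 min. On the poly-A scale both of these lists had 0 calls at 180 min by limma, and 4 of the thioredoxin genes and 5 of the glyoxalase and formaldehyde genes were lower at 120 min. Quantile normalization applied again gave 1 rise and 2 falls of the glyoxalase and formaldehyde genes, and 2 rises and 1 fall of the transferase-like proteins, at 120 min.

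**Figure D5:**
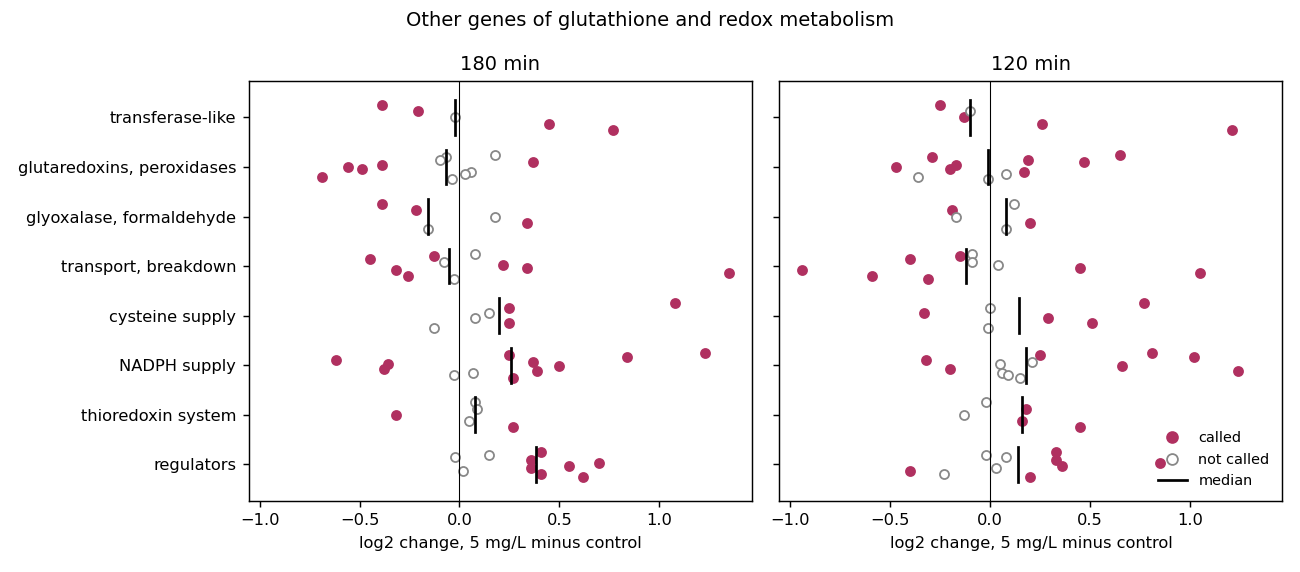
The log2 change at 5 mg/L minus control (horizontal axis) is plotted for each of the 64 genes of 8 pathway lists at 180 min (left) and 120 min (right) on the deposited scale, with filled points called, open points not called and a bar for the list's median. Both signs occur in most lists, with medians from -0.16 to 0.39 at 180 min and -0.12 to 0.18 at 120 min; the poly-A scale moves all points by -0.24 at 180 min and -0.78 at 120 min.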

How the data were processed

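The deposited values are RMA signals of 18 one-colour Affymetrix arrays, 3 in each of 6 groups, read as log2 from their range of 0.41 to 13.74; RMA, affy and limma are named per the submitters' processing notes, without versions, and the base of the log is not given in the sources used here. Per the labels' protocols, 100 ng of total RNA from the RNeasy Mini Kit was labelled with the GeneChip 3' IVT Express Kit. Of 10928 probe sets, the platform annotation names 7245, including 1747 of another yeast species, whose percentile 95 set the background level; the 3470 unnamed and 213 control probe sets were not tested, and 12 symbols were updated.

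Group means were fitted in R 4.3.3 by lmFit, contrasts.fit and eBayes (neither trend nor robust) of limma 3.58.1 over all 18 arrays, with 12 residual degrees of freedom, for 11 comparisons. P-values were adjusted by Benjamini-Hochberg over 5498 probe sets with a threshold of 0.05. Standard errors (SE) are moderated and pooled over the 6 groups. The steps were tested on simulated data. The number of arrays limits the precision, and each p-value reflects scatter among these arrays only. The members and the pathway lists were chosen with earlier results of these data known. Named were all members and the 3 closest probe sets by r. Pathway genes were named from the up to 4 called genes per list and time with the smallest p at 5 mg/L. Not all of these are named, and a gene that met the rule at either time may be given at both. Alternatives were eBayes settings, array weights, the arrays fitted, a filter on dim probe sets, further quantile normalization, poly-A scaling, a replicate block and leaving out each array. Promoter sequences were not used here.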

Additional observations from a re-analysis of the deposited data

Results flagged for a closer look

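The effect of 5 mg/L on GTT1, the transferase of the endoplasmic reticulum, differed between the times in a test of the difference itself, by -0.47 (180 minus 120 min, log2, SE 0.14, limma adjusted p = 0.039). All 3 arrays at 5 mg/L lay above the 3 control arrays at each time. It turned to 0.08 under poly-A scaling and lost its call in 9 of 18 fits without 1 array, and 15.0% of all probe sets were called in this comparison. No group had enough arrays for a test of single outlying samples.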

How the results depend on the processing

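With trend and robust eBayes, without dim probe sets, or with quantile normalization applied again, all 88 values of the 8 genes over 11 comparisons kept their call and its direction. Of the genes called at 5 mg/L against control, 6 of 7 at 180 min and 7 of 7 at 120 min were called in every fit without 1 array. Array weights called 2 of the 8 genes for 1 mg/L against control at 120 min, 4 for the difference of the 5 mg/L effect between the times, 2 between the times at 1 mg/L and 7 in control, and the fit of the compared arrays alone called 5 in control. Over all probe sets array weights called 106 and 252 for 1 mg/L at 180 and 120 min (otherwise 6 and 25), 2203 and 159 for the time differences of the 5 and 1 mg/L effects (824 and 0), and 655, 1563 and 2861 between the times at 5 mg/L, 1 mg/L and in control (49, 561 and 1278). The compared arrays alone gave 2 for 1 mg/L at 180 min, and 7, 37 and 2217 between the times at 5 mg/L, 1 mg/L and in control, and quantile normalization gave 79 at 5 mg/L.

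Poly-A scaling left 2 called genes of 8 for 5 mg/L against control and 1 against 1 mg/L at 180 min, and 0 for the time difference of the 5 mg/L effect and between the times in control. Over all probe sets it called 550 in place of 3374 and 338 in place of 3264 at 180 min, 0 for 1 mg/L at both times, 5 for the time difference, and 2, 0 and 1 between the times at 5 mg/L, 1 mg/L and in control. It subtracts 1 value per array, and its shift had an SE of 0.25. Changes of direction were followed for the 8 genes and for the list genes with the smallest p, not for every list gene. Among these, poly-A scaling reversed at 120 min, against control, GTO1 (-0.61), GTT1 (-0.04), GTT2 (-0.26), URE2 (-0.52), GRX2 (-0.31), GPX1 (-0.13), GRX1 (-0.59), SFA1 (-0.59), CYS3 (-0.01), STR3 (-0.27), STR2 (-0.50), POS5 (-0.12), TRX3 (-0.34), TRX2 (-0.63), TRR2 (-0.60), CAD1 (-0.45), MET4 (-0.42), MET31 (-0.45), GLO1 (-0.66), GEX1 (-0.33) and YAP1 (-0.58). CYS4, at 0.00 on the deposited scale, moved to -0.78 and was called lower. Against 1 mg/L it reversed GTO1 (-0.72), and of the members called there ECM4 (-0.08), GTT1 (-0.31) and GTT2 (-0.41). The time difference of GTT1 became 0.08. Quantile normalization turned STR3 to -0.07 at 180 min. The causes were not tested.

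Without 1 array, the number of the 8 genes called ran from 0 to 2 for the time difference of the 5 mg/L effect, from 0 to 1 between the times at 1 mg/L and from 1 to 3 in control, and over all probe sets it ran from 403 to 1160, from 253 to 798 and from 646 to 1469 in these comparisons, from 7 to 131 between the times at 5 mg/L, and from 2 to 9 and 14 to 38 for 1 mg/L against control at 180 and 120 min. The replicate block changed 1 of 88 values, GTO3 between the times at 1 mg/L (1 gene called in place of 0, adjusted p = 0.0407, limma). Same-numbered arrays of the same time had residual correlations of -0.30 to 0.52, with 8 of 18 over 0.1. For differently numbered arrays of the same time they were -0.61 to 0.61, with 13 of 36 over 0.1. Since 10 of the 18 same-numbered pairs were not over 0.1, and no label ties a number to a shared culture or day, the numbers were not taken to pair the arrays. Even so, 12 of 18 arrays correlated best with one of their own number, a hint of shared structure from the data and not the design, which was not tested. Among the list genes with the smallest p, leaving out 1 array ended some calls in at least 1 fit. These were the calls of TRX2, TRR2, TEF4, SFA1 and YAP1 at 120 min and of OPT1, STR3 and TRX3 at 180 min. The fits without 1 array were not read for every list gene, so the stability of the remaining genes' calls was not tested.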
